A study of Homo sapiens with 30 samples.

Results

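The genes described are ligands and receptors of the tumour necrosis factor (TNF) superfamily, 8 of the 63138 genes in the deposited table, chosen by symbol. They are 6 ligands, TNFSF10, TNFSF18, LTB, TNFSF15, TNFSF9 and TNFSF4, and 2 receptors, CD40 and FAS. The cells were hCMEC/D3, an immortalised human endothelial line derived from brain microvessels, and their RNA was sequenced as 30 libraries in 10 groups of 3. In the 5 direct groups the cells spent 12 hours in serum-free medium with nothing added (Control), with a cytokine, with the complement fragment C5a or with epinephrine. The doses were 25 ng/mL for TNFα, 10 ng/mL for IL-1β, 50 ng/mL for C5a and, for epinephrine, 200 nM. The groups EV-TNFα, EV-IL-1β, EV-C5a, EV-Epinephrine and EV-Control were cells of the same line given extracellular vesicles that had been enriched from the supernatants of cells treated in those 5 ways. The labels of these vesicle groups also give 12 hours, and the vesicle amount is not given in the sources used here. Everything comes from 1 cell line, and nothing in the labels says that the 3 libraries of a group were separate cultures, so p-values measure the spread between libraries, which may be technical.

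Ligands of this superfamily are mostly membrane-bound trimers that engage receptors of the matching receptor superfamily on neighbouring cells. Death receptors such as FAS carry an intracellular death domain that can recruit caspases, whereas CD40 and the lymphotoxin beta receptor recruit TRAF adaptors and feed the canonical and non-canonical NF-kappaB pathways. On endothelium, ligands of the family can give costimulatory or death signals to leukocytes that touch the vessel wall, and CD40 is known for its part in endothelial activation.

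Levels are given in CPM, the usual count scaled to library depth and here also to library composition, unless raw counts are named. A gene is said to rise, fall or pass where its adjusted p was under 0.05. Library totals ran from 16643961 to 22112326 counts. All 12 endothelial marker genes had a mean of at least 1 CPM, and their summed level was 911 to 1420 CPM per library. It differed between groups, with 1370 to 1420 CPM in Control, 1300 to 1350 in TNFα, 1020 to 1060 in IL-1β and 914 to 953 in EV-Control. The 10 leukocyte markers summed to 1.62 to 4.77 CPM and the 5 astrocyte markers to 0.867 to 5.71 CPM, with AQP4 and S100B at 0 counts in every library. Both sums were lower in TNFα (1.62 to 2.87 and 0.867 to 1.96 CPM) than in Control (3.41 to 4.18 and 3.04 to 3.54 CPM). The 6 markers of pericytes or smooth muscle summed to 320 to 509 CPM, with 463 to 484 in TNFα and 370 to 421 in Control. Most of that sum was CSPG4 (mean 324 CPM in Control, 429 in TNFα), while PDGFRB fell from 68.1 to 35.1 CPM and RGS5 from 7.85 to 5.37. Endothelial markers moved both ways after TNFα. CLDN5 (log2 -1.26), ESAM (-1.11), EGFL7 (-1.11), PECAM1 (-0.79), TIE1 (-0.32) and ENG (-0.25) fell. TEK (0.78), CDH5 (0.66), VWF (0.63), KDR (0.49), FLT1 (0.35) and ERG (0.13) rose. The part of these marker differences in the results was not tested. In EV-Control, replicates 1 and 3 had 31 and 23 genes more than 1 log2 unit from the mean of their group mates, against 0 to 11 in the other libraries. By the median distance over 10651 genes, Epinephrine replicates 2 and 1 were farthest from their mates (0.133 and 0.104 log2 units). As these are bulk samples, fewer expressing cells and less RNA per cell cannot be told apart.

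The bases upstream of TNFSF10, TNFSF18 and LTB are shown because these 3 genes had the largest rises after TNFα. Each run is the 250 bases before the RefSeq transcription start (GRCh38.p14, minus strand, written 5′ to 3′ along the gene): chr3:172523431-172523680 for TNFSF10, chr1:173050942-173051191 for TNFSF18 and chr6:31582426-31582675 for LTB. Capitals mark matches to the searched motifs.
TNFSF10: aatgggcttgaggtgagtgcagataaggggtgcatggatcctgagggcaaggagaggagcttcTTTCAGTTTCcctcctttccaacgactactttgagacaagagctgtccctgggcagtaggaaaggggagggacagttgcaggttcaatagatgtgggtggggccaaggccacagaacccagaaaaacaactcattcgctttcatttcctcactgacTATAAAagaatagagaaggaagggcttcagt
TNFSF18: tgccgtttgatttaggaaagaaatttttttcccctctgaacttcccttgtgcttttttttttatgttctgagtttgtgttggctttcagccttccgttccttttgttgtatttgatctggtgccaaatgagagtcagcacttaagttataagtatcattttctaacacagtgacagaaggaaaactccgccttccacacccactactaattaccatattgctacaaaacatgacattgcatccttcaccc
LTB: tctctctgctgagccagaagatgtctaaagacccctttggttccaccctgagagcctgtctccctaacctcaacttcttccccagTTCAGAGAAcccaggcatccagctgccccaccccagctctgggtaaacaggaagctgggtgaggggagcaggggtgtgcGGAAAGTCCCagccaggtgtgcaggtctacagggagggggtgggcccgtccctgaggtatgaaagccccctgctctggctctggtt

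Both strands of 300-base windows, which also hold the 50 bases after the start, were searched for the kappaB consensus, the exact kappaB site of the kappa light chain enhancer, an interferon-stimulated response element core, the interferon gamma activated sequence (TTCNNNGAA) and the TATA box (TATAAA). Windows were at hand for 7 of the 8 genes. In LTB the run in capitals nearest the start, at bases -86 to -77, is the reverse complement of the kappa light chain enhancer site and also matches the kappaB consensus. That exact site occurred in 0.191% of 35116 windows of the same length and the consensus in 11.3%. The LTB window held another match to the consensus after the start, at bases 38 to 47, outside the bases printed above. The first run in capitals of LTB matches TTCNNNGAA, as do 7.66% of windows. In TNFSF10 the first run, at bases -187 to -178, is an interferon-stimulated response element core on the opposite strand, found in 3.57% of windows, and TATAAA follows at bases -31 to -26, as in 11.5% of windows. TNFSF9 also held an interferon-stimulated response element core and TATAAA, and FAS held the kappaB consensus in its second window. No searched letters were found in the windows of TNFSF18, TNFSF4 and TNFSF15, which says nothing of factors that bind elsewhere.

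Per kilobase of exon, the most abundant of the 8 transcripts in Control was TNFSF9 at 7.54 CPM per kb, followed by TNFSF10 at 5.08, FAS at 4.75, CD40 at 3.67 and TNFSF18 at 1.60. TNFSF4 (0.427 CPM per kb), LTB (0.187) and TNFSF15 (0.00449) were scarce. After TNFα the order was TNFSF10 at 79.3 CPM per kb, TNFSF18 at 57.6, LTB at 21.0, CD40 at 14.4, FAS at 11.5 and TNFSF9 at 8.65. With IL-1β, TNFSF10 was again first, at 12.6 CPM per kb, while LTB stood at 1.48.

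**Figure D1:**
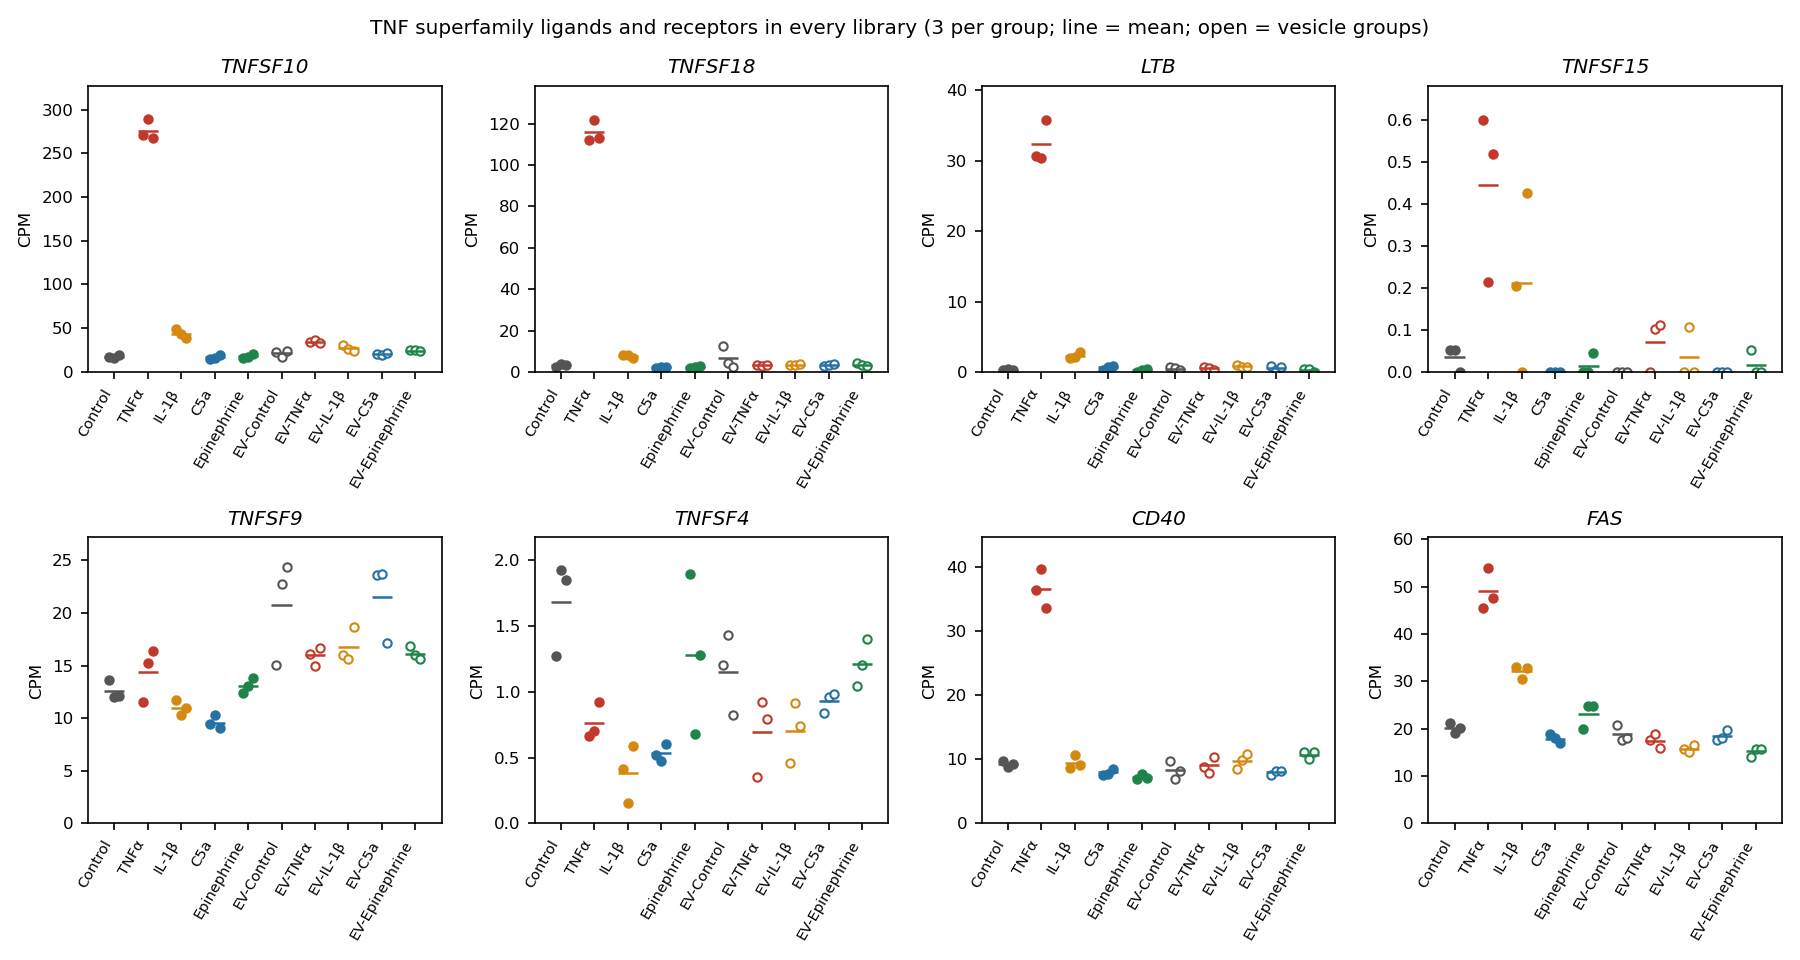
Level of each of the 8 genes in CPM (vertical axes, linear, from 0) in every library of the 10 groups; points are libraries, lines are group means, and open points are vesicle groups. TNFSF10, TNFSF18, LTB, CD40 and FAS are highest in the 3 TNFα libraries, whereas TNFSF4 is highest on average in Control and TNFSF9 in vesicle groups.

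Direct TNFα raised 3 of the ligands strongly, TNFSF10, TNFSF18 and LTB, together with both receptors. Of the 7 genes that could be tested, 5 rose and 1 fell, while 52.7% of all 15908 genes passed the same test in either direction and 27.5% rose. The median log2 fold change was 1.97 over these 7 genes and -0.01 over all tested genes. IL-1β raised 4 of the 7, by less, and lowered 1, against a background of 46.6% of genes called and 24% raised. Each of these 5 rises after TNFα and 4 rises after IL-1β was called under each of the 14 other settings and left-out libraries tried.

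TNFSF10 encodes TRAIL, which binds the death receptors DR4 and DR5. It lies at chr3:172505508-172523507 on the minus strand (GENCODE 29, GRCh38). Its level in Control was 16.9, 16.3 and 19.8 CPM, against 271, 289 and 267 CPM after TNFα and 48.9, 43.8 and 38.5 CPM after IL-1β. Every TNFα library was above every IL-1β library, and these were in turn above every Control library. The log2 fold change was 3.97 (SE 0.097, adjusted p = 2.53e-19) for TNFα and 1.32 (SE 0.10, adjusted p = 5.46e-10) for IL-1β. Between the cytokines, the level with IL-1β was lower by a log2 difference of -2.65 (SE 0.087, adjusted p = 1.36e-16). C5a (16.7 ± 2.38 CPM, SD, n = 3) and epinephrine (17.9 ± 2.22) overlapped with Control (17.6 ± 1.88).

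TNFSF18 encodes the ligand of GITR, a costimulatory receptor of T cells, and lies at chr1:173039960-173050963 on the minus strand. Libraries of Control had 2.27, 3.84 and 3.54 CPM, those of TNFα 112, 122 and 113 CPM and those of IL-1β 8.09, 8.34 and 6.65 CPM. The 3 groups did not overlap, and the TNFα libraries stood far above the rest. After TNFα the gene rose 36.0-fold (log2 5.17, SE 0.12, adjusted p = 2.95e-29). The rise after IL-1β was 2.41-fold (log2 1.27, SE 0.15, adjusted p = 9.7e-09), and the log2 difference between IL-1β and TNFα was -3.90 (SE 0.10, adjusted p = 1.46e-26).

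LTB encodes lymphotoxin beta, which anchors lymphotoxin heterotrimers in the membrane and signals through the lymphotoxin beta receptor. The gene lies at chr6:31580525-31582522 on the minus strand, 2.2 kb from TNF and 6.2 kb from LTA. It was close to absent from Control, with 5, 7 and 4 counts (0.264, 0.373 and 0.225 CPM). TNFα libraries held 30.6, 30.4 and 35.8 CPM, and IL-1β libraries 1.96, 2.11 and 2.77 CPM. All of the latter were above all Control libraries and far below all TNFα libraries. In log2 units LTB rose by 6.77 (SE 0.25, adjusted p = 6.13e-23) after TNFα and by 2.96 (SE 0.36, adjusted p = 1.17e-08) after IL-1β, with a difference of -3.81 (SE 0.18, adjusted p = 1.93e-19) for IL-1β against TNFα. Its neighbours on the chromosome stayed scarce: TNF had 26 counts summed over the TNFα libraries and 1 over Control, and LTA had 10 and 4.

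TNFSF4, the ligand of the costimulatory receptor OX40, moved the other way. This gene lies at chr1:173183734-173207313, 132.8 kb from TNFSF18 on the same strand. Control had 1.27, 1.92 and 1.85 CPM, TNFα 0.667, 0.698 and 0.923, IL-1β 0.412, 0.158 and 0.585, and C5a 0.517, 0.476 and 0.602. Every library of the 3 stimulated groups was below every Control library. The log2 change was -2.10 (SE 0.45, adjusted p = 0.000205) for IL-1β, -1.64 (SE 0.43, adjusted p = 0.00433) for C5a and -1.13 (SE 0.41, adjusted p = 0.0211) for TNFα. These values rest on 3 to 36 counts per library. The call for TNFα was lost without Control replicate 2 (-1.02, adjusted p = 0.0719), Control replicate 3 (-1.05, adjusted p = 0.0588), TNFα replicate 1 (-1.05, adjusted p = 0.0588) or TNFα replicate 2 (-1.06, adjusted p = 0.06).

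TNFSF9 encodes the ligand of 4-1BB, another costimulatory receptor, and lies at chr19:6530999-6535928 on the plus strand. Its Control libraries had 13.6, 12.0 and 12.1 CPM and its TNFα libraries 11.5, 15.3 and 16.4 CPM, which overlapped. Neither TNFα (log2 0.20, SE 0.12, adjusted p = 0.149) nor IL-1β (log2 -0.18, SE 0.12, adjusted p = 0.212) passed the test. Without TNFα replicate 1, the lowest of its group, the value for TNFα was 0.34 (adjusted p = 0.0173). IL-1β was lower than TNFα by a log2 difference of -0.39 (SE 0.12, adjusted p = 0.00827), a call lost without TNFα replicate 3 (-0.28, adjusted p = 0.0881) or when scaled by library totals alone (-0.19, adjusted p = 0.168).

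TNFSF15, which encodes TL1A, a ligand made by endothelial cells, lies at chr9:114784635-114806126 on the minus strand and was too scarce for the main test. It had 9, 4 and 9 counts in the TNFα libraries, 4, 0 and 8 in those of IL-1β, and 1, 1 and 0 in Control. The TNFα libraries were all above Control, and the IL-1β libraries were not. From summed counts, the ratio to Control was 12.0 for TNFα (95% exact interval 2.94 to 105) and 5.82 for IL-1β (1.3 to 53.6), intervals that cover counting error only. When no low-count filter was applied, the change after TNFα was 3.39 on the log2 scale (adjusted p = 0.0268) and that after IL-1β was 2.36 (adjusted p = 0.228). In 18 of the 30 libraries it had 0 counts. These include all of C5a, EV-Control and EV-C5a, where 0 counts allows up to 3 counts over the group, or 0.0516 CPM in C5a.

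CD40 lies at chr20:46118272-46129863 on the plus strand. Levels in Control were 9.73, 8.80 and 9.33 CPM, in TNFα 36.3, 39.6 and 33.5 CPM, and in IL-1β 8.60, 10.6 and 9.10 CPM. TNFα libraries stood above every other library of the series, whereas IL-1β and Control overlapped. CD40 rose 3.92-fold after TNFα (log2 1.97, SE 0.10, adjusted p = 3.08e-18). After IL-1β the log2 change was 0.03 (SE 0.12, adjusted p = 0.851), and IL-1β differed from TNFα by -1.94 (SE 0.10, adjusted p = 9.66e-18).

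FAS lies at chr10:88990582-89015785 on the plus strand. Control held 21.3, 19.2 and 20.2 CPM, TNFα 45.4, 53.9 and 47.7 CPM, and IL-1β 33.0, 30.5 and 32.9 CPM, with no overlap among the 3 groups. It rose 2.43-fold after TNFα (log2 1.28, SE 0.085, adjusted p = 2.64e-15) and 1.60-fold after IL-1β (log2 0.68, SE 0.087, adjusted p = 4.91e-08). IL-1β was below TNFα by a log2 difference of -0.60 (SE 0.081, adjusted p = 1.36e-07). The opposite strand carries ACTA2, whose exons overlap those of FAS. Use of strand in the counting is not given in the sources used here, and without strand the reads of the pair cannot be told apart. ACTA2 itself had group means of 1.92 to 3.04 CPM and did not pass the test after TNFα (log2 -0.16, adjusted p = 0.603) or IL-1β (log2 -0.02, adjusted p = 0.943).

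In the direct comparison of IL-1β with TNFα, 6 of the 7 tested genes were lower with IL-1β, against 21.4% of all genes lower and 41.4% called in either direction. TNFSF4 was the exception (log2 -0.97, SE 0.50, adjusted p = 0.118). These comparisons share control or TNFα libraries, so they are not independent of each other.

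**Figure D2:**
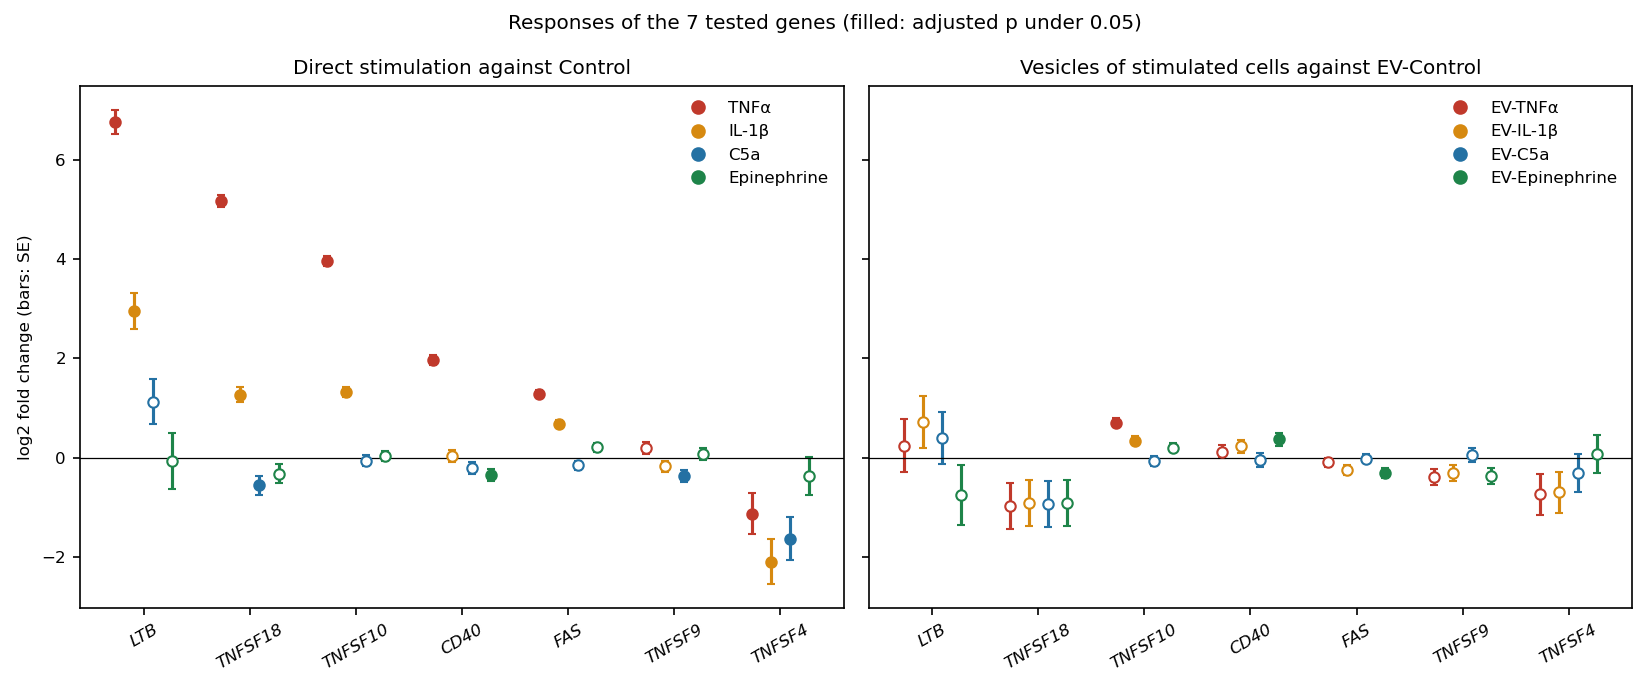
Log2 fold change with its standard error for the 7 tested genes after direct stimulation against Control (left) and after vesicles against EV-Control (right), coloured by stimulus and filled where the adjusted p was under 0.05. TNFα moved LTB by 6.77 and TNFSF18 by 5.17, while the largest called rise in the vesicle groups was 0.70, for TNFSF10 in EV-TNFα.

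C5a lowered 3 of the 7 genes, TNFSF4, TNFSF9 and TNFSF18, where 10.8% of all genes were lower and 22.6% called in either direction. TNFSF9 had 9.41, 10.3 and 9.03 CPM with C5a, below every Control library (log2 -0.38, SE 0.12, adjusted p = 0.0202). TNFSF18 had 1.96, 2.38 and 2.16 CPM, overlapping with Control (log2 -0.56, SE 0.19, adjusted p = 0.0323). LTB had a log2 value of 1.13 with C5a that did not pass (adjusted p = 0.0757), but it was called higher by DESeq2 (1.14, adjusted p = 0.0492) and without C5a replicate 1 (1.46, adjusted p = 0.023). The calls for TNFSF9 and TNFSF18 depended on single libraries. That for TNFSF9 was lost without Control replicate 1 (-0.32, adjusted p = 0.117), C5a replicate 1 (-0.37, adjusted p = 0.0663) or C5a replicate 3 (-0.34, adjusted p = 0.0875). That for TNFSF18 was lost when just C5a and Control were fitted (adjusted p = 0.0654), in a fit of all 30 libraries (adjusted p = 0.409), and without Control replicate 2 (-0.41, adjusted p = 0.215), Control replicate 3 (-0.49, adjusted p = 0.121), C5a replicate 1 (-0.49, adjusted p = 0.122) or C5a replicate 3 (-0.55, adjusted p = 0.0796).

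Epinephrine lowered CD40 alone among the 7, with 25.2% of all genes called. Its CD40 levels of 6.92, 7.63 and 7.07 CPM were below every Control library (log2 -0.36, SE 0.12, adjusted p = 0.0247). The call was lost without Control replicate 1 (-0.32, adjusted p = 0.0981), Control replicate 3 (-0.35, adjusted p = 0.053), Epinephrine replicate 1 (-0.33, adjusted p = 0.0735) or Epinephrine replicate 3 (-0.34, adjusted p = 0.0768), without a low-count filter (-0.36, adjusted p = 0.0523), and when just Epinephrine and Control were fitted (-0.36, adjusted p = 0.0592). Without Epinephrine replicate 1, FAS was called higher (0.30, adjusted p = 0.0131), and without Control replicate 1, TNFSF18 was called lower (-0.53, adjusted p = 0.0424).

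The receptors of the 6 ligands were measured in the same cells. For TRAIL, both death receptors rose after TNFα and both decoy receptors, which bind the ligand without a working death domain, fell. TNFRSF10B (DR5) went from 138 ± 2.26 CPM in Control (SD, n = 3) to 282 ± 4.98 after TNFα (log2 1.03, SE 0.045, adjusted p = 1.15e-20), and TNFRSF10A (DR4) from 19.1 ± 2.22 to 35.7 ± 0.64 CPM (log2 0.90, SE 0.088, adjusted p = 5.07e-11). The decoy TNFRSF10D went from 30.1 ± 3.97 to 20.6 ± 1.45 CPM (log2 -0.55, SE 0.089, adjusted p = 2.44e-06) and the decoy TNFRSF10C from 5.30 ± 0.692 to 3.48 ± 0.226 CPM (log2 -0.61, SE 0.19, adjusted p = 0.00771). In all 4 genes the TNFα and Control libraries did not overlap.

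After IL-1β the same genes rose and fell, with smaller log2 changes than after TNFα in TNFRSF10A, TNFRSF10B and TNFRSF10D. For TNFRSF10C the difference between the cytokines was 0.08 (adjusted p = 0.78). TNFRSF10A changed by 0.45 (SE 0.089, adjusted p = 7e-05) and TNFRSF10B by 0.38 (SE 0.045, adjusted p = 1.01e-08) on the log2 scale, against -0.53 for TNFRSF10C (SE 0.19, adjusted p = 0.0201) and -0.27 for TNFRSF10D (SE 0.086, adjusted p = 0.00986). For TNFRSF10D the IL-1β and Control libraries overlapped. With C5a TNFRSF10D fell too (log2 -0.50, adjusted p = 4.89e-05). Against EV-Control, TNFRSF10B was lower in EV-TNFα (-0.16, adjusted p = 0.00936) and EV-IL-1β (-0.13, adjusted p = 0.0361). TNFRSF10D was higher in both (0.33, adjusted p = 0.0419, with overlap, and 0.50, adjusted p = 0.00162), and TNFRSF10A was higher in EV-IL-1β (0.32, adjusted p = 0.013). The 4 genes are paralogs with related sequences, and reads that fit more than 1 of them could have been split or dropped. TNFRSF11B, the soluble receptor osteoprotegerin that also binds TRAIL, had at most 3 counts summed over any group.

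The receptors of TNFSF9, TNFSF4 and TNFSF18 are best known from T cells, and all 3 receptor transcripts rose after TNFα from near nothing. TNFRSF9 (4-1BB) held 0.370, 0 and 0.450 CPM in Control and 18.8, 20.0 and 18.5 CPM after TNFα (log2 6.11, SE 0.31, adjusted p = 1.39e-18), a ratio of summed counts of 70.8 (95% exact interval 42.7 to 127). TNFRSF4 (OX40) had 0.159, 0.587 and 0.0562 CPM in Control and 4.34, 3.01 and 2.83 CPM after TNFα (log2 3.61, SE 0.49, adjusted p = 7.73e-08). TNFRSF18 (GITR) had 3 counts in all of Control and 85 in TNFα, a ratio of 30.8 (interval 10.2 to 153, adjusted p of the change 1.14e-07). All TNFα libraries were above all Control libraries for these 3 receptors. Over the same comparison the ligands did not follow 1 pattern: TNFSF18 rose, TNFSF9 had a log2 change of 0.20 that did not pass, and TNFSF4 was called lower.

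After IL-1β, TNFRSF18 had 56 counts, 18.1 times Control (interval 5.89 to 90.5, adjusted p of the change 8.05e-06). TNFRSF9 reached 1.35 ± 0.298 CPM (log2 2.30, SE 0.43, adjusted p = 3.94e-05). TNFRSF4 went down, with 2 counts against 15 in Control, a ratio of 0.129 (interval 0.0144 to 0.556, adjusted p of the change 0.0165). IL-1β and TNFα thus differed for TNFRSF4 by -6.34 (SE 0.66, adjusted p = 5.89e-10), and the TNFRSF18 values of both cytokines overlapped (log2 -0.73, SE 0.41, adjusted p = 0.158).

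LTBR, the receptor of lymphotoxin beta, was abundant throughout. It had 207 ± 8.27 CPM in Control and 180 ± 2.09 after TNFα, a fall of -0.20 in log2 units (SE 0.05, adjusted p = 0.00113), and 220 ± 6.13 CPM after IL-1β (log2 0.09, adjusted p = 0.128). TNFRSF25, the receptor of TL1A, went from 7.26 ± 0.314 CPM to 5.51 ± 0.267 after TNFα (log2 -0.40, SE 0.14, adjusted p = 0.014). The decoy receptor TNFRSF6B and the CD40 ligand CD40LG had 0 counts in every library, and the FAS ligand FASLG had at most 1 count summed over any group. A count of 0 allows up to 3 counts. Exons of TNFRSF10A, TNFRSF10B, TNFRSF10C, TNFRSF25, TNFRSF6B and LTBR overlap those of other genes in GENCODE 29, which leaves their values uncertain where the counting could not separate the genes.

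**Figure D3:**
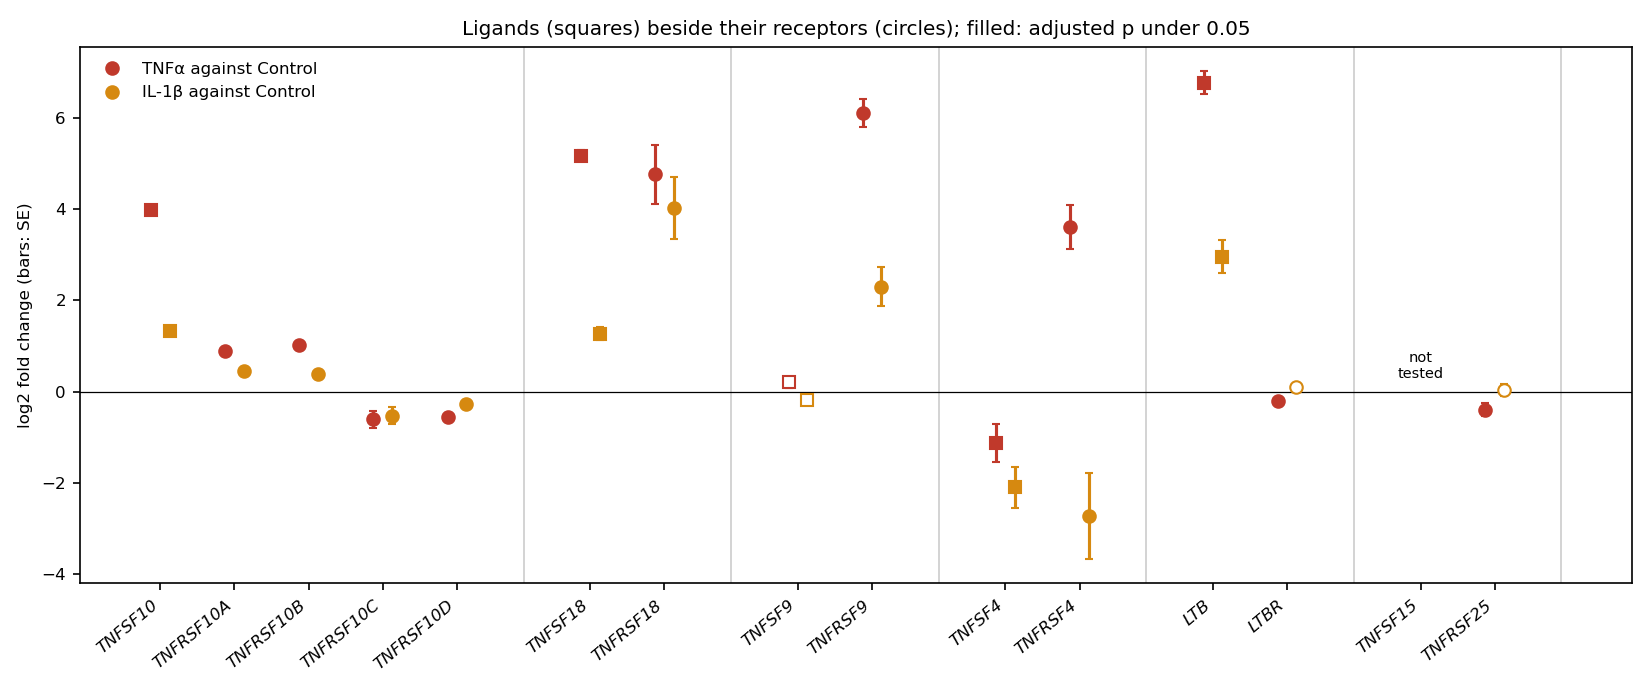
Log2 fold change with its standard error after TNFα and IL-1β against Control for each ligand (squares) beside its receptors (circles), filled where the adjusted p was under 0.05. TNFRSF9 lies at 6.11 beside a TNFSF9 value of 0.20, and TNFRSF10A and TNFRSF10B lie above 0 where TNFRSF10C and TNFRSF10D lie below it.

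Among the 12 other ligands of the family, 5 had enough counts, of which 2 rose and 1 fell after TNFα, where 52.7% of all genes passed in either direction. TNFSF13B, which encodes the B-cell survival factor BAFF, had 2.43, 1.55 and 1.40 CPM in Control and 78.6, 90.5 and 78.3 CPM after TNFα (log2 5.51, SE 0.13, adjusted p = 1.35e-28), with 9.08 ± 0.531 CPM after IL-1β (log2 2.34, SE 0.16, adjusted p = 2.24e-14). CD70, the ligand of CD27, lies 47.3 kb from TNFSF9 and rose from 2.94 ± 0.177 to 11.9 ± 2.12 CPM after TNFα (log2 2.01, SE 0.18, adjusted p = 4.48e-12). TNFSF12, which encodes TWEAK and shares exons with a read-through transcript, fell after TNFα (log2 -0.79, adjusted p = 0.00026) and IL-1β (log2 -1.06, adjusted p = 6.11e-06). Against EV-Control, 3 of these 5 ligands passed in EV-TNFα, where 13.3% of all genes did. TNFSF13B (log2 0.98, adjusted p = 0.00679) and CD70 (0.68, adjusted p = 0.000972) were higher there, and TNFSF12 was lower (-0.60, adjusted p = 0.0113). In EV-IL-1β 1 was higher and 1 lower, and in EV-Epinephrine 2 were higher, where 14.6% and 19.7% of all genes passed. Of 20 tested receptors of the family other than CD40 and FAS, 10 rose and 8 fell after TNFα, beside the same 52.7% of all genes, and 7 rose and 6 fell after IL-1β, beside 46.6%. Besides those above, TNFRSF13C, the BAFF receptor, fell by 2.18 on the log2 scale after TNFα (SE 0.34, adjusted p = 1.29e-06), from 2.75 ± 0.465 to 0.586 ± 0.323 CPM, and TNFRSF19 fell, with overlapping libraries, from 1.12 ± 0.545 to 0.511 ± 0.312 CPM (log2 -1.16, SE 0.48, adjusted p = 0.0406). TNFRSF13C also fell after IL-1β, without overlap (log2 -0.96, SE 0.29, adjusted p = 0.00722).

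Genes that act downstream of death receptors also moved. After TNFα 14 of the 19 listed genes rose and 1 fell, where 27.5% of all genes rose and 25.3% fell, with a median log2 change of 0.75 against -0.01 over all genes. After IL-1β 12 rose and 3 fell, where 24% of all genes rose and 22.6% fell, with a median of 0.23. The rises included inhibitors of cell death as well as its effectors. BIRC3, an inhibitor of apoptosis, went from 28.3 ± 1.58 CPM to 679 ± 35.9 after TNFα (log2 4.58, SE 0.10, adjusted p = 1.08e-15) and 117 ± 4.06 after IL-1β (log2 2.05, adjusted p = 7.61e-11). CFLAR, which encodes the caspase-8 inhibitor FLIP, went from 92.3 ± 5.2 to 393 ± 3.87 CPM after TNFα (log2 2.09, SE 0.051, adjusted p = 2.3e-28).

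MLKL, the executor of necroptosis, rose from 24.5 ± 0.757 to 105 ± 3.24 CPM after TNFα (log2 2.10, SE 0.065, adjusted p = 3.49e-25) and to 43.2 ± 2.57 after IL-1β (log2 0.83, adjusted p = 1.34e-12). BID, which links caspase-8 to mitochondria, rose by 1.60 in log2 units after TNFα (SE 0.062, adjusted p = 4.06e-22) and by 1.12 after IL-1β (SE 0.063, adjusted p = 8.12e-17). FAIM2, an inhibitor of FAS-mediated death, was the listed gene that fell after TNFα, from 7.77, 8.75 and 7.59 CPM to 0.200, 0.698 and 0.346 CPM (log2 -4.20, SE 0.26, adjusted p = 2.03e-16). It also fell after IL-1β (log2 -1.69, SE 0.18, adjusted p = 1.16e-09), as did DIABLO (log2 -0.76, adjusted p = 0.0271) and TRADD (log2 -0.24, adjusted p = 0.00827). Exons of CFLAR, DIABLO and TRADD overlap those of other genes, with the same uncertainty as for the receptors, as do those of TNFAIP3. Scaled by library totals alone, 12 of the 19 rose and 3 fell after TNFα, and CASP8, which had a change of 0.26 with the main scaling, had -0.01.

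Signalling genes of CD40 and the lymphotoxin beta receptor rose in 13 of 15 cases after TNFα (median log2 0.77), where 27.5% of all genes rose. After IL-1β 12 of 15 rose (median 0.43), where 24% of all genes did. TRAF1, an adaptor of CD40, went from 9.04, 9.34 and 8.37 CPM in Control to 373, 383 and 386 CPM after TNFα (log2 5.41, SE 0.071, adjusted p = 5.57e-36) and 43.6, 41.5 and 45.1 CPM after IL-1β (log2 2.29, SE 0.076, adjusted p = 1.97e-23). TNFAIP3, the NF-kappaB inhibitor A20, had a log2 change of 4.45 (SE 0.21, adjusted p = 6.24e-09) after TNFα and 1.51 (SE 0.20, adjusted p = 7.21e-05) after IL-1β. RELB, the non-canonical NF-kappaB subunit, had changes of 2.80 (SE 0.097, adjusted p = 7.34e-21) and 1.04 (SE 0.10, adjusted p = 9.76e-10). The CPM of these genes did not overlap between cytokine and Control libraries. With library totals alone, 11 rose and 1 fell after TNFα, and IKBKB, at 0.24 with the main scaling, had -0.03. With C5a 4 of the 15 were higher and 3 lower, where 11.8% of all genes were higher and 10.8% lower. TNFAIP3 (log2 -1.70, adjusted p = 0.000286), RELB (-0.46, adjusted p = 0.0037, with overlap) and NFKB2 (-0.40, adjusted p = 1.14e-07) were lower. TRAF5 (0.56, adjusted p = 0.000189), MAP3K14 (0.48, adjusted p = 0.000134), TRAF2 (0.40, adjusted p = 7.27e-05) and IKBKB (0.17, adjusted p = 0.0209) were higher.

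**Figure D4:**
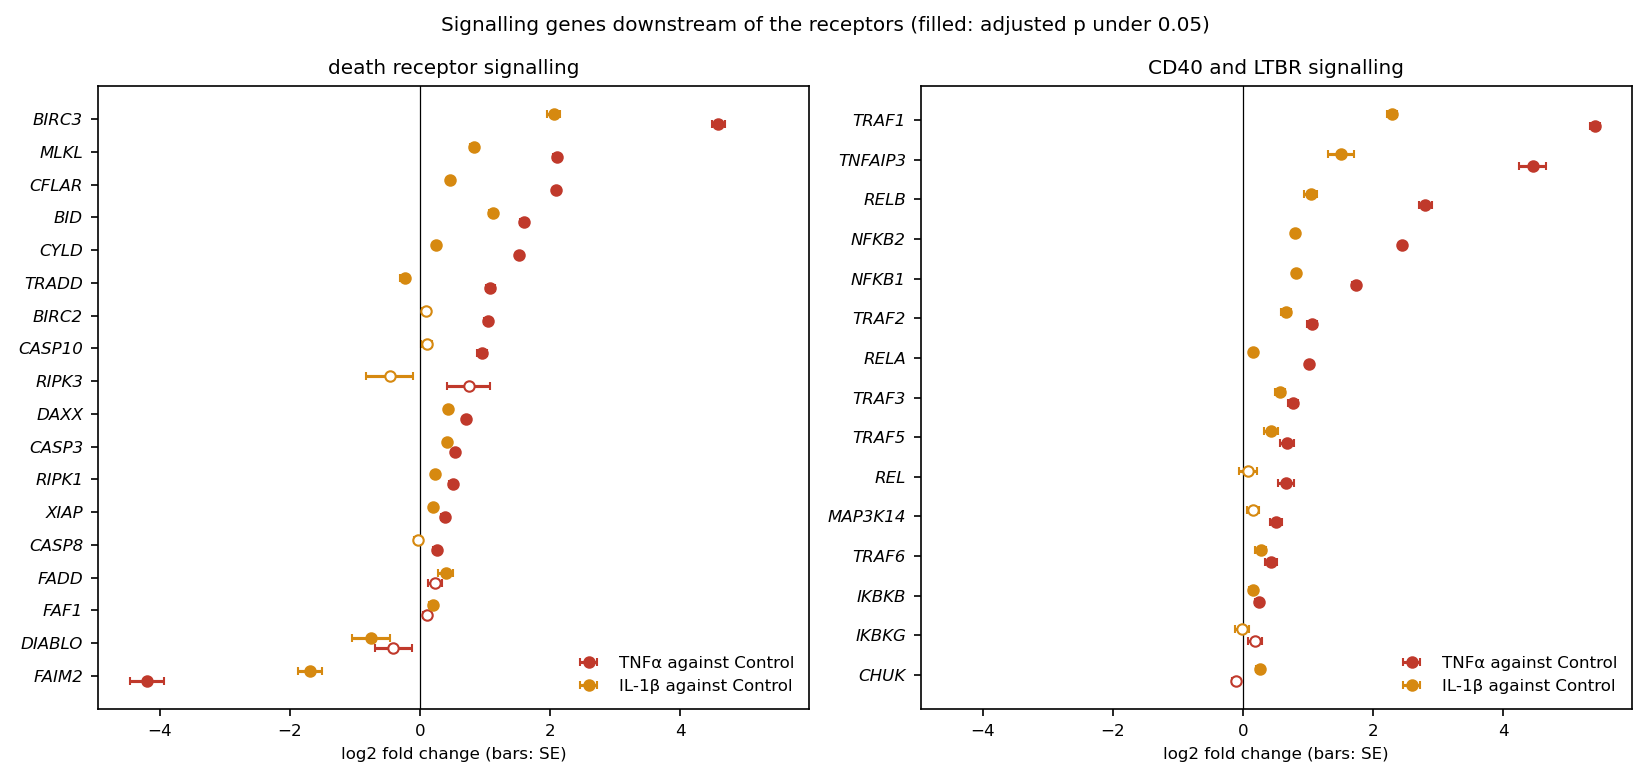
Log2 fold change with its standard error (horizontal axis) of 18 of the 19 genes listed for death receptor signalling and the 15 listed for CD40 and lymphotoxin beta receptor signalling, after TNFα and IL-1β against Control; filled points had an adjusted p under 0.05. BIRC3 at 4.58 and TRAF1 at 5.41 lie farthest to the right and FAIM2 at -4.20 farthest to the left, all for TNFα.

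In the vesicle groups the shares of these genes that passed were near those of all genes. In EV-TNFα the gene that passed was TNFSF10, 1 of 7, where 13.3% of all genes passed. Its libraries had 34.2, 36.6 and 33.6 CPM, against 23.3, 17.5 and 23.5 CPM in EV-Control, without overlap (log2 0.70, SE 0.088, adjusted p = 1.43e-08). The call held under each alternative tried, with log2 changes of 0.57 to 0.78 when single libraries were left out. TNFSF10 also passed in EV-IL-1β, where 14.6% of genes did: 30.3, 26.6 and 24.5 CPM, all above EV-Control (log2 0.34, SE 0.09, adjusted p = 0.00578). That call was lost without EV-Control replicate 2 (0.21, adjusted p = 0.138) or EV-IL-1β replicate 1 (0.25, adjusted p = 0.0932), and when just EV-IL-1β and EV-Control were fitted (0.34, adjusted p = 0.0539).

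Set side by side, TNFSF10 was higher in all 3 EV-TNFα libraries than in all 3 EV-IL-1β libraries, but the log2 difference of -0.36 (SE 0.085) had an adjusted p of 0.13. None of the 7 genes passed between these groups in edgeR, 1 had an unadjusted p under 0.05, DESeq2 called 0, and 0.00628% of all genes passed. In EV-C5a 0 of the 7 passed in edgeR or DESeq2 and 0 had an unadjusted p under 0.05, where 0.0503% of all genes passed.

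EV-Epinephrine had 2 of 7 called, where 19.7% of genes were. FAS was lower, at 14.0, 15.7 and 15.8 CPM against 20.7, 17.7 and 18 in EV-Control (log2 -0.31, SE 0.097, adjusted p = 0.0156). CD40 was higher, at 11.1, 9.97 and 11.1 CPM against 9.65, 7.0 and 8.21 (log2 0.37, SE 0.13, adjusted p = 0.0362). Neither pair of groups overlapped. The FAS call was lost without EV-Control replicate 1 (-0.24, adjusted p = 0.129) or EV-Epinephrine replicate 1 (-0.25, adjusted p = 0.11). The CD40 call was lost without EV-Control replicate 2 (0.26, adjusted p = 0.231), EV-Control replicate 3 (0.37, adjusted p = 0.0714), EV-Epinephrine replicate 1 (0.35, adjusted p = 0.115) or EV-Epinephrine replicate 3 (0.35, adjusted p = 0.109). With all libraries it was also lost in DESeq2 (0.37, adjusted p = 0.0533), without a low-count filter (0.37, adjusted p = 0.0523) and when just EV-Epinephrine and EV-Control were fitted (0.37, adjusted p = 0.0518).

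EV-Control itself differed from Control in TNFSF9, the 1 gene of 7 that passed there, where 21.9% of all genes did. It had 15.1, 22.8 and 24.4 CPM, all above the Control libraries (log2 0.73, SE 0.13, adjusted p = 3.1e-05). The labels do not say whether direct and vesicle groups were cultured and sequenced together, so vesicles and such differences cannot be told apart here. TNFSF9 levels in the other vesicle groups were 16.0 ± 0.869 CPM in EV-TNFα, 16.8 ± 1.73 in EV-IL-1β, 21.5 ± 3.73 in EV-C5a and 16.1 ± 0.668 in EV-Epinephrine. Replicate 1 of EV-Control was the low library, and without it TNFSF9 was called lower in EV-TNFα (-0.56, adjusted p = 7.89e-05), EV-IL-1β (-0.49, adjusted p = 0.000587) and EV-Epinephrine (-0.55, adjusted p = 9.36e-05), whereas with all libraries it had log2 values of -0.39, -0.32 and -0.37 that did not pass in the main test. With all libraries but no low-count filter all 3 passed (adjusted p = 0.00134, 0.014 and 0.00169). EV-TNFα and EV-Epinephrine also passed in DESeq2 (adjusted p = 0.041 and 0.038) and in the fit of all 30 libraries (adjusted p = 0.0406 and 0.0387).

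TNFSF18 varied widely within EV-Control, at 12.6, 4.35 and 2.63 CPM, while the other vesicle groups had means of 3.29 to 3.42 CPM. Against EV-Control it had log2 values of -0.98, -0.92, -0.94 and -0.92 in EV-TNFα, EV-IL-1β, EV-C5a and EV-Epinephrine, none of which passed. Without replicate 1 of EV-Control these were -0.09, -0.03, -0.05 and -0.03. Without replicate 3 they were -1.35 (adjusted p = 0.00843), -1.30 (adjusted p = 0.011), -1.32 (adjusted p = 0.0686) and -1.30 (adjusted p = 0.00808).

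The 3 EV-Control libraries were in the same order for several signalling genes: BIRC3 had 108, 61.2 and 43.6 CPM, TRAF1 16.1, 9.14 and 6.78 CPM, and TNFAIP3 437, 320 and 217 CPM. The part of this spread in the results for vesicle groups was not tested. The listed signalling genes of CD40 and the lymphotoxin beta receptor included 1 higher and 3 lower of 15 in EV-TNFα, where 5.9% of all genes were higher and 7.42% lower. TNFAIP3 (log2 -1.54, adjusted p = 0.00106), NFKB2 (-0.81, adjusted p = 0.00723) and RELB (-0.44, adjusted p = 0.0318) were lower there, and TRAF5 was higher (0.40, adjusted p = 0.00728). In EV-Epinephrine 1 was higher and 5 were lower, where 9.12% of all genes were higher and 10.5% lower. Without replicate 1 of EV-Control these counts were 0 higher and 3 lower in EV-TNFα and 0 higher and 4 lower in EV-Epinephrine. Without replicate 3 they were 1 higher and 6 lower, and 1 higher and 7 lower. In EV-IL-1β, with all libraries, 1 was higher and 4 were lower, where 6.49% of all genes were higher and 8.14% lower. Of the 19 genes listed for death receptor signalling, 5 passed in EV-TNFα, 3 in EV-IL-1β and 8 in EV-Epinephrine. The shares of all genes were 13.3%, 14.6% and 19.7%. In EV-TNFα 3 of the 19 were higher and 2 lower, with BIRC3 among the lower (log2 -1.27, adjusted p = 0.0119).

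**Figure D5:**
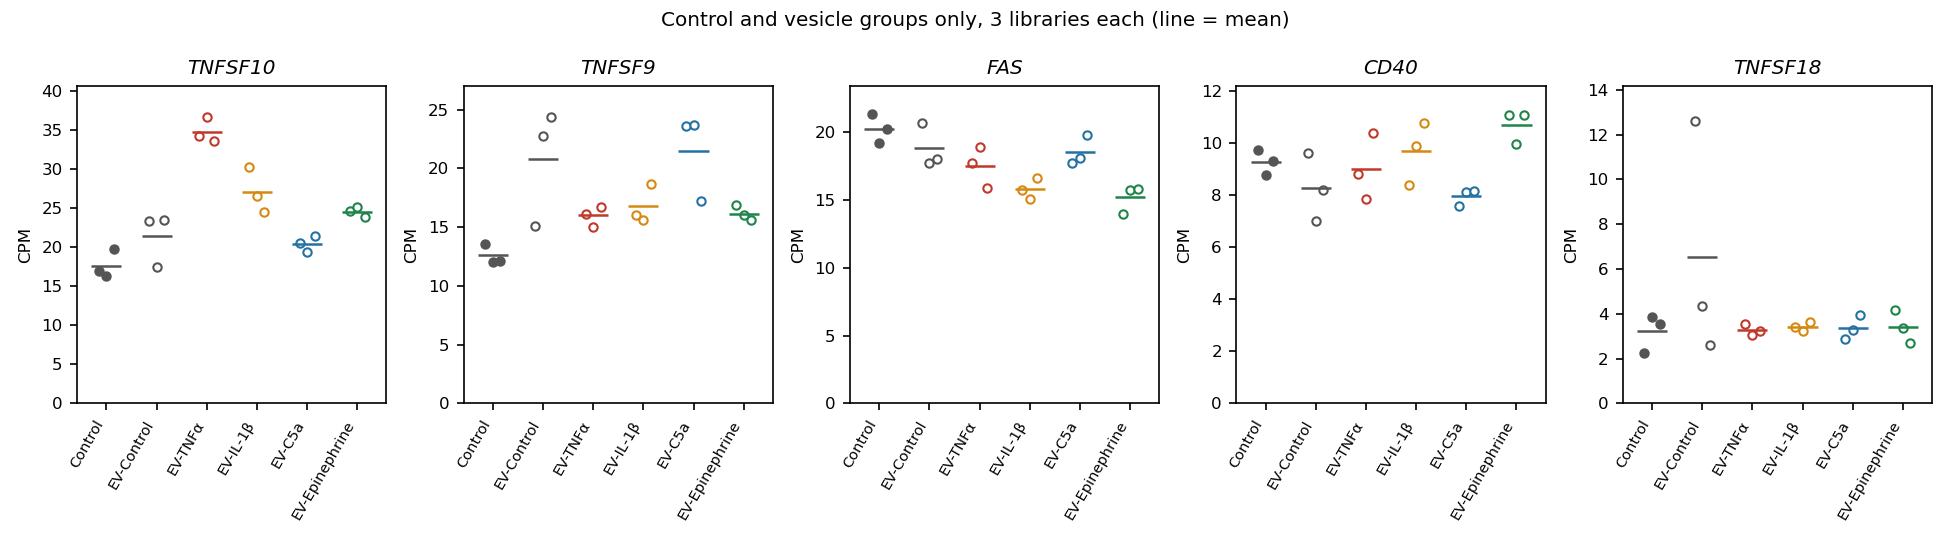
Levels in CPM (vertical axes, linear, from 0) of 5 genes in Control and the 5 vesicle groups, with points for libraries and lines for means. TNFSF10 is highest in EV-TNFα, at 33.6 to 36.6 CPM, and replicate 1 of EV-Control stands apart at 12.6 CPM for TNFSF18 and 15.1 CPM for TNFSF9.

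Whether the vesicle response differed from the direct response was tested as a difference of differences over all 30 libraries. For TNFα 6 of the 7 genes had a lower log2 response to vesicles, where 23.4% of all genes were lower and 44.7% called in either direction. For IL-1β 4 of 7 did, where 18.3% were lower and 35.2% called. For epinephrine 2 of 7 differed, with 24.2% called. For C5a edgeR and DESeq2 called 0 of the 7, with 2 genes at an unadjusted p under 0.05 (TNFSF4 and TNFSF9) and 11.9% of all genes called.

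Lastly, the genes whose levels were most like those of 7 of the 8 over the 10 group means were sought among at least 11053 genes with at least 5 CPM in their highest group, by Pearson's r of log2 CPM. TNFSF15 was too scarce for this and was left out. For TNFSF10 they included CGAS (r = 0.989) and CNP (0.989). For FAS they were PTPN12 (0.994), CASP4 (0.991) and SQOR (0.986), for CD40 ARPC2 (0.99), ELMO2 (0.984) and CLIC1 (0.983), for LTB MYCBP2 (0.991), BMPR2 (0.991) and GTPBP2 (0.988), and for TNFSF18 ARID5A (0.992), RGMB-AS1 (0.988) and PANX1 (0.987). TNFSF9 was most like SOX9 (0.94), IRS2 (0.932) and DLC1 (0.927), and TNFSF4 most like APMAP (0.951), CD109 (0.925) and ARHGEF6 (0.925). The 10 points share libraries across genes, so these values are a description, and r without the TNFα group was not computed.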

How the data were processed

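The authors deposited 1 table of raw counts per gene for the 30 libraries. The submitters' processing notes name STAR, FastQC, R 4.4.1, DESeq2 and hg38, without their roles. The counting program, annotation release and use of strand are not given in the sources used here. Lines without a gene ID (4, of which 2 held counts, at most 0.00164% of a library) were left out. Groups were taken from the labels. Counts were tested with edgeR 4.0.16 (R 4.3.3), by quasi-likelihood after its default low-count filter and TMM scaling, two-sided, with Benjamini-Hochberg adjustment over all genes of a fit. Direct groups (15908 genes), vesicle groups (15918) and all 30 libraries (16691; EV-Control against Control and differences of responses) were fitted separately. Fits were tested on simulated counts. All 8 genes, their receptors, CD40LG and FASLG were named. From other lists up to 3 passing genes per direction and comparison were named, at 1 CPM or more in the higher group, plus the 3 genes most alike in pattern; 1 gene that the rule names is not reported here. ACTA2, TNF, LTA, CASP8, IKBKB and the single endothelial and pericyte marker genes were named after their values were seen. Alternatives were other scalings, filters, DESeq2 1.42.0, other sets of libraries, the replicate block and leaving out libraries. Genes and lists were chosen with earlier results of these data known. Same-numbered libraries were checked for pairing: 33 pairs had correlations of -0.039 to 0.03.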

Additional observations from a re-analysis of the deposited data

Results flagged for a closer look

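In 12 cases, among the 7 tested genes and the stimuli TNFα, IL-1β, C5a and epinephrine, the response to vesicles differed from the direct response. This was a test of the difference itself over all 30 libraries (edgeR, adjusted over all genes). Of all genes 44.7% were called for TNFα (23.4% lower), 35.2% for IL-1β (18.3% lower), 11.9% for C5a and 24.2% for epinephrine. Values are the log2 change against EV-Control minus the log2 change against Control. For TNFα the differences were -6.52 for LTB (SE 0.65, adjusted p = 4.37e-13), -6.13 for TNFSF18 (SE 0.47, adjusted p = 3.77e-10), -3.26 for TNFSF10 (SE 0.15, adjusted p = 2.09e-17), -1.85 for CD40 (SE 0.17, adjusted p = 1.73e-14), -1.38 for FAS (SE 0.13, adjusted p = 1.81e-14) and -0.59 for TNFSF9 (SE 0.18, adjusted p = 0.00823).

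For IL-1β they were -2.22 for LTB (SE 0.61, adjusted p = 0.00295), -2.17 for TNFSF18 (SE 0.51, adjusted p = 0.00199), -0.97 for TNFSF10 (SE 0.15, adjusted p = 9.71e-06) and -0.92 for FAS (SE 0.13, adjusted p = 3.17e-08). For epinephrine FAS had -0.51 (SE 0.13, adjusted p = 0.00203) and CD40 0.74 (SE 0.18, adjusted p = 0.000989). The TNFSF18 values include replicate 1 of EV-Control, which had 12.6 CPM beside 4.35 and 2.63 CPM in the other 2 libraries. Groups of 3 libraries were too small for the test for single outlying libraries.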

How the results depend on the processing

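Over 1543 alternative values of 105 gene results, 1472 kept their side of the threshold, 34 lost the call and 37 gained one. Of the called changes 0 reversed. Values that did not pass could change sign between settings, as for TNFSF9 after TNFα (log2 -0.07 to 0.34) and CD40 after IL-1β (-0.06 to 0.10). Moves in the number of genes that passed included the following, out of 7 tested genes unless stated otherwise. Without a low-count filter, where 8 genes were tested, it was 0 for epinephrine, 2 for EV-TNFα, 2 for EV-IL-1β, 1 for EV-IL-1β against EV-TNFα and 2 for EV-Control against Control. TNFSF15 also passed there after TNFα (adjusted p = 0.0268). With a mean of at least 50 counts it was 2 of 6 tested for EV-Control against Control. DESeq2 gave 2 for EV-TNFα and 3 for EV-Control against Control, and the fit of all 30 libraries gave 2 for EV-TNFα. In fits of only the groups compared it was 0 of 6 tested for epinephrine, 0 of 7 for EV-IL-1β and 1 of 6 for EV-Epinephrine.

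Leaving out 1 library gave 5 to 6 for TNFα, 5 to 5 for IL-1β, 5 to 6 for IL-1β against TNFα, 1 to 3 for C5a, 0 to 1 for epinephrine, 1 to 2 for EV-TNFα, 0 to 2 for EV-IL-1β, 0 to 0 for EV-C5a, 0 to 3 for EV-Epinephrine, 0 to 0 for EV-IL-1β against EV-TNFα and 1 to 3 for EV-Control against Control. For the differences of responses it gave 6 to 6 for TNFα, 4 to 5 for IL-1β, 0 to 1 for C5a and 2 to 3 for epinephrine. With the replicate block 0 of 105 calls and 0 of 15 counts changed; of 33 same-numbered pairs 0 had a correlation over 0.1.

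Over all genes, EV-C5a had 8 calls, and 5 by library totals, 73 without a filter, 3 with at least 50 counts, 3 with all 30 libraries, 3 with only the groups compared and 175 without EV-Control replicate 3. EV-IL-1β against EV-TNFα had 1, and 3, 23 and 6 by library totals, without a filter and with only the groups compared, and 3 with the replicate block. Scaling by library totals alone put the median log2 change of all genes after TNFα at -0.287, against -0.012. The share of calls that were higher became 22.7% against 52.1% for TNFα, 38.7% against 51.5% for IL-1β, 76.1% against 48.1% for IL-1β against TNFα, 60.2% against 46.4% for EV-Epinephrine and 42.6% against 55.3% for EV-Control against Control. For the differences of responses it became 76.7% against 47.7% for TNFα and 62.3% against 48.1% for IL-1β, and the TNFSF9 difference for TNFα became -0.30 (adjusted p = 0.166). After TNFα the family's other receptors then had 9 higher and 9 lower.

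List counts without replicates 1 and 3 of EV-Control were added after seeing the data. Depth limited TNFSF15, TNFSF4, LTB in unstimulated cells, TNFRSF18 and TNFRSF4, which had few counts.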
